A study of Homo sapiens with 6 samples.

Results

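The genes described here are the subunits of the respiratory chain that nuclear DNA encodes, set beside the protein-coding genes of the mitochondrial genome. They were chosen by symbol alone: NDUFA, NDUFB, NDUFC, NDUFS and NDUFV with a number, the SDH, UQCR and COX subunits named by the rule, and every MT- gene for a protein. The rule found 72 of the 56638 symbols in the files, 59 of them nuclear and 13 mitochondrial, and all 72 had enough counts to be tested among 23074 genes. RNA was sequenced from cultured human colorectal cancer cells transfected either with control siRNA or with siRNA against GLCC1, a long non-coding RNA that the sample labels call lncRNA-AF339830, with 3 libraries in each group. The labels name the cell line SW480, derived from a colon tumour, and the paper's methods name DLD-1, and which line was used was not tested. Neither source gives the time between this transfection and the harvest. The paper states for its experiments in general that biological replicates were collected independently, but no source says so of these libraries in particular, so that each p measures the spread between these libraries, which may be technical.

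The respiratory chain sits in the inner mitochondrial membrane, where complexes I and II take electrons from metabolites, complex III passes them to cytochrome c and complex IV hands them to oxygen. Complexes I, III and IV pump protons as they do so, and ATP synthase, complex V, uses the gradient to make ATP. Complex II is built from nuclear genes alone, whereas the other complexes combine nuclear subunits made in the cytosol with a core that mitochondria transcribe and translate themselves. The mitochondrial mRNAs are cut from long transcripts that cover almost the whole circular genome, so their levels depend on processing and decay as well as on transcription. The comparison therefore asks whether the transcripts of both genomes moved alike after GLCC1 siRNA.

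Libraries were grouped by their titles. The library names given beside the titles go against them, since they attach the letters NC to the libraries titled GLCC1 siRNA and AF123 to those titled control siRNA, and every direction below would turn round if the library names were right. No symbol of the files was assigned to GLCC1 here, so its own level could not be used to check the titles. Genes received 11948790 to 19042516 read pairs in a library, and GLCC1 siRNA replicate 2 was the smallest library. That library stood apart: it was the lowest of its group for 44 of the 59 nuclear genes and for 11 of the 13 mitochondrial genes. Levels are given as counts per 1000000 gene counts of a library, after TMM scaling (CPM). Among genes whose mean reached 10 CPM, its median log2 difference from the other GLCC1 siRNA libraries was -0.24 for 425 transcripts under 1 kb and 0.07 for 5481 transcripts of 3 kb or longer, and it was -0.23 for the nuclear subunits. Markers of colon epithelium were present in every library, with a summed level of 5444 to 5952 CPM in the control libraries and of 2104 to 2546 CPM in the GLCC1 siRNA libraries, where 6 of the 8 markers fell. For 7 markers of fibroblasts, blood and endothelium the sum was 11.8 to 15 CPM in the controls and 6.68 to 8.17 CPM after GLCC1 siRNA, nearly all of it COL1A1, and PTPRC and PECAM1 had no count in any library. All 15 genes of a short list of interferon-induced genes rose, by 0.81 to 6.68 on the log2 scale, and what part either pattern has in the results below was not tested. In bulk RNA a change in the make-up of the culture and a change within each cell cannot be told apart.

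Complex III held the largest changes, and these were falls of nuclear genes. Of its 8 nuclear genes 7 fell and none rose, and the eighth, UQCRQ, also lay lower in every GLCC1 siRNA library. MT-CYB, the only mitochondrial gene of the complex, rose by 0.43 on the log2 scale, less than its nuclear partners UQCRB, UQCRFS1, UQCR10 and UQCR11 fell. Over all genes tested 16.7% fell and 14.9% rose (edgeR quasi-likelihood test, adjusted p under 0.05), and all 3 GLCC1 siRNA libraries were below all 3 controls for 24.0%. Since calls come more easily at high counts, the share among genes whose mean reached 10 CPM, 29.8% fallen and 20.1% risen, is the nearer background for these abundant transcripts. The median log2 fold change of the 8 nuclear genes was -0.47, against 0.03 over all genes tested and -0.07 over genes of at least 10 CPM. No set test was run on these few genes, which were chosen with results of these data known.

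UQCRB, a small subunit that lies near the quinone-binding site, showed the largest fall of all 72 genes. It had 113, 104 and 117 CPM in the control libraries and 31.3, 34.5 and 29.3 CPM in the GLCC1 siRNA libraries, so that the highest treated value was far below the lowest control. This was a log2 fold change of -1.82, with a standard error (SE) of 0.10 and an adjusted p of 4.1e-08, and left 28.4% of the control level. UQCRFS1, the Rieske iron-sulfur protein that takes electrons from quinol, fell almost as far. Its level was 96.5, 96.7 and 97.3 CPM in the controls and 29.5, 27.8 and 29.6 CPM after GLCC1 siRNA, a log2 fold change of -1.74 (SE 0.09, adjusted p = 2.4e-08). The replicates of UQCRFS1 were closer to each other than those of any other gene of the complex, within 1.05 CPM (SD, n = 3) in either group. By size of fall, UQCRB ranked 33 and UQCRFS1 ranked 45 among the 10378 genes whose mean reached 10 CPM. A two-sided exact permutation test gave p = 0.1 for each, which is the smallest that 3 libraries against 3 allow, so each adjusted p rests on the spread that edgeR models across all genes.

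The other falls in complex III were smaller. UQCR10, a short transmembrane subunit, went from 83, 93.6 and 105 CPM to 48.1, 39.4 and 54.6 CPM (log2 fold change -0.98, SE 0.12, adjusted p = 4.3e-05). UQCR11, another small subunit, went from 116, 120 and 120 CPM to 89.5, 63.5 and 86.9 CPM (log2 fold change -0.57, SE 0.11, adjusted p = 0.0019). In both genes the lowest value was that of replicate 2, and the groups were still apart without it. The core proteins UQCRC1 and UQCRC2 and the hinge protein UQCRH fell by 0.38, 0.29 and 0.29 on the log2 scale. UQCRQ, a ubiquinone-binding subunit, had a log2 fold change of -0.17 (adjusted p = 0.22). CYC1, the cytochrome c1 of the complex, is outside the rule and fell by 0.50 (adjusted p = 0.0018), while CYCS, the soluble cytochrome c that carries the electrons onward, rose by 0.47 (adjusted p = 0.0025).

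**Figure D1:**
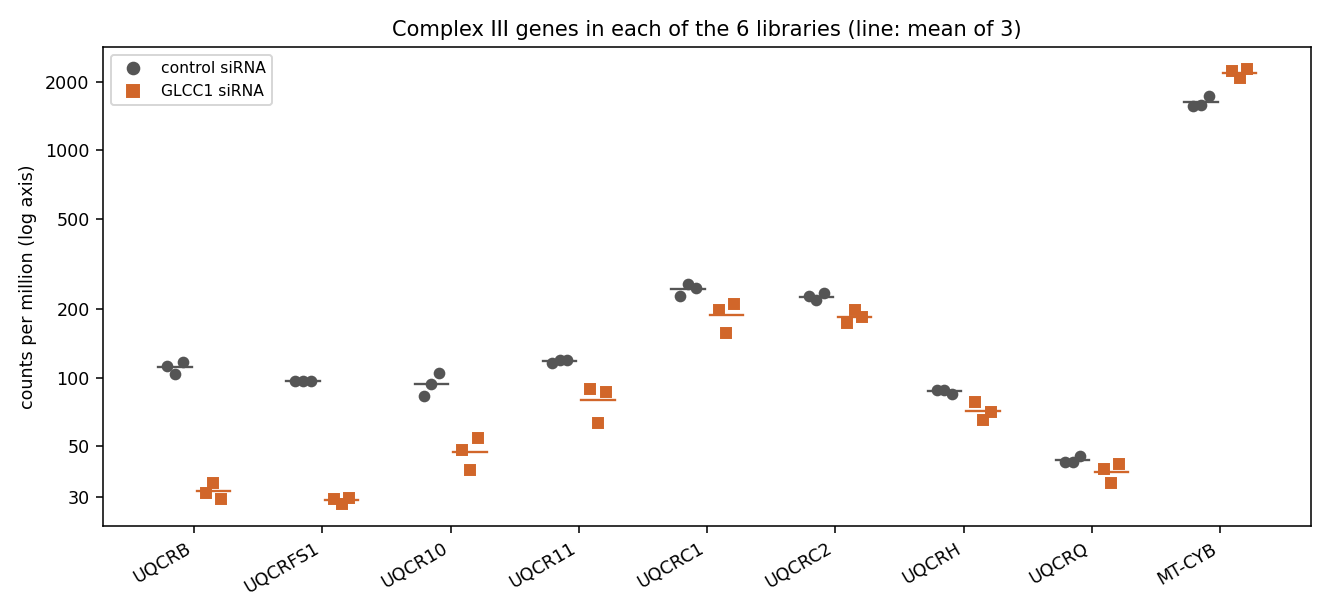
CPM (log axis) of the 8 nuclear complex III genes and of mitochondrial MT-CYB in each library, with control siRNA as grey circles, GLCC1 siRNA as orange squares and a line at the mean of 3. UQCRB and UQCRFS1 drop to between 27.8 and 34.5 CPM, every nuclear gene lies lower after GLCC1 siRNA without overlap, and MT-CYB lies higher.

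An siRNA guide strand can also pair, through bases 2 to 8, with messengers that it was not designed for, in the manner of a microRNA. The word that pairs with these bases of siRNA 1, one of the GLCC1 siRNAs of the study, is ACCTTGA, and ACCTTGAA when the next base of the GLCC1 target is counted. Which of the study's siRNAs was used for these libraries is not stated in the sources used here. The sample labels end in siRNA1, siRNA2 and siRNA3 in both groups, and this number was read as the replicate. The paper also numbers its GLCC1 siRNAs, and whether the labels mean different siRNAs was not tested. The word was searched for in the coding sequence and 3′ UTR of the canonical transcript of each tested protein-coding gene, on the sense strand only. The sequences below are the GLCC1 target and both sites of UQCRFS1 in GRCh37, written 5′ to 3′ on the strand of the transcript, with the 7-base word in capitals; they are shown because UQCRFS1 and UQCRB were the only nuclear subunits with the 8-base word.
GLCC1 target of siRNA 1, chr13:99049528-99049546, plus strand: ggaagagcaacACCTTGAa
UQCRFS1 coding sequence, chr19:29698503-29698521, minus strand: tgctcctctcaACCTTGAa
UQCRFS1 3′ UTR, chr19:29696885-29696903, minus strand: cctgaagtgatACCTTGAa

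With the 8-base word included, 10 of the 19 bases of the coding site and 11 of the 19 bases of the 3′ UTR site were those of the target, so that few bases outside the word matched. UQCRB holds the 8-base word once, in its coding sequence, where 13 of 19 bases, again with the word included, were those of the target. The 7-base word alone was found in UQCRC2, NDUFS1 and NDUFB4, whose log2 fold changes were -0.29, -0.08 and -0.02, so that 5 of the 58 nuclear genes searched had either word. Of 13674 tested genes with a canonical protein-coding transcript 23.9% fell and 17.9% rose. The 8-base word was in 7.85% of them, and 36% of these fell with a median log2 fold change of -0.18. Genes with the 7-base word only had a median of -0.11, and those without it had a median of -0.02 and fell in 21.6% of cases. Of the 53 nuclear subunits without the word 16 fell, or 30.2%, so most of the falls in the chain stood in genes that do not hold it. A matching word does not show that the siRNA acts there, and its part in the fall of UQCRB and UQCRFS1 was not tested.

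Both genes have further features that bear on their counts. UQCRFS1 has a listed copy, UQCRFS1P1, with 18.4% of its mean counts and a log2 fold change of -2.07 (adjusted p = 5.8e-07), and how reads were shared between the copy and the gene is not known. UQCRFS1 has 2 exons and spans chr19:29696227-29704058 on the minus strand of GRCh37, and UQCR10 has 2 exons at chr22:30163358-30166402 on the plus strand. Exons of other annotated genes overlap 19.7% of the exonic bases of UQCR10, 18.1% of those of UQCR11 and 0.4% of those of UQCRB. UQCRB has 4 exons and spans 97235175 to 97247774 on the minus strand of chromosome 8.

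Taking all complexes, 19 of the 59 nuclear subunits fell (32.2%) and 4 rose (6.78%), and 36 did not pass the test. The share that fell was close to the 29.8% of all genes with at least 10 CPM, whereas the share that rose was below the 20.1% of those genes. Each GLCC1 siRNA library was below each control for 27 nuclear genes and above each control for 6, beside 37.8% and 26.2% of the genes whose mean reached 10 CPM. The median log2 fold change of the nuclear genes was -0.18 and their range was -1.82 to 0.66. Without UQCRB and UQCRFS1, an alternative chosen after the values were seen, 17 fell and the median was -0.17. The count depended on how libraries were scaled: with library totals alone 11 nuclear genes fell and 6 rose, because that scaling moves the median of all genes from 0.03 to 0.15, and the shares of calls that were rises went from 17.4% to 35.3% for the nuclear subunits and from 47.0% to 62.9% for all genes.

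**Figure D2:**
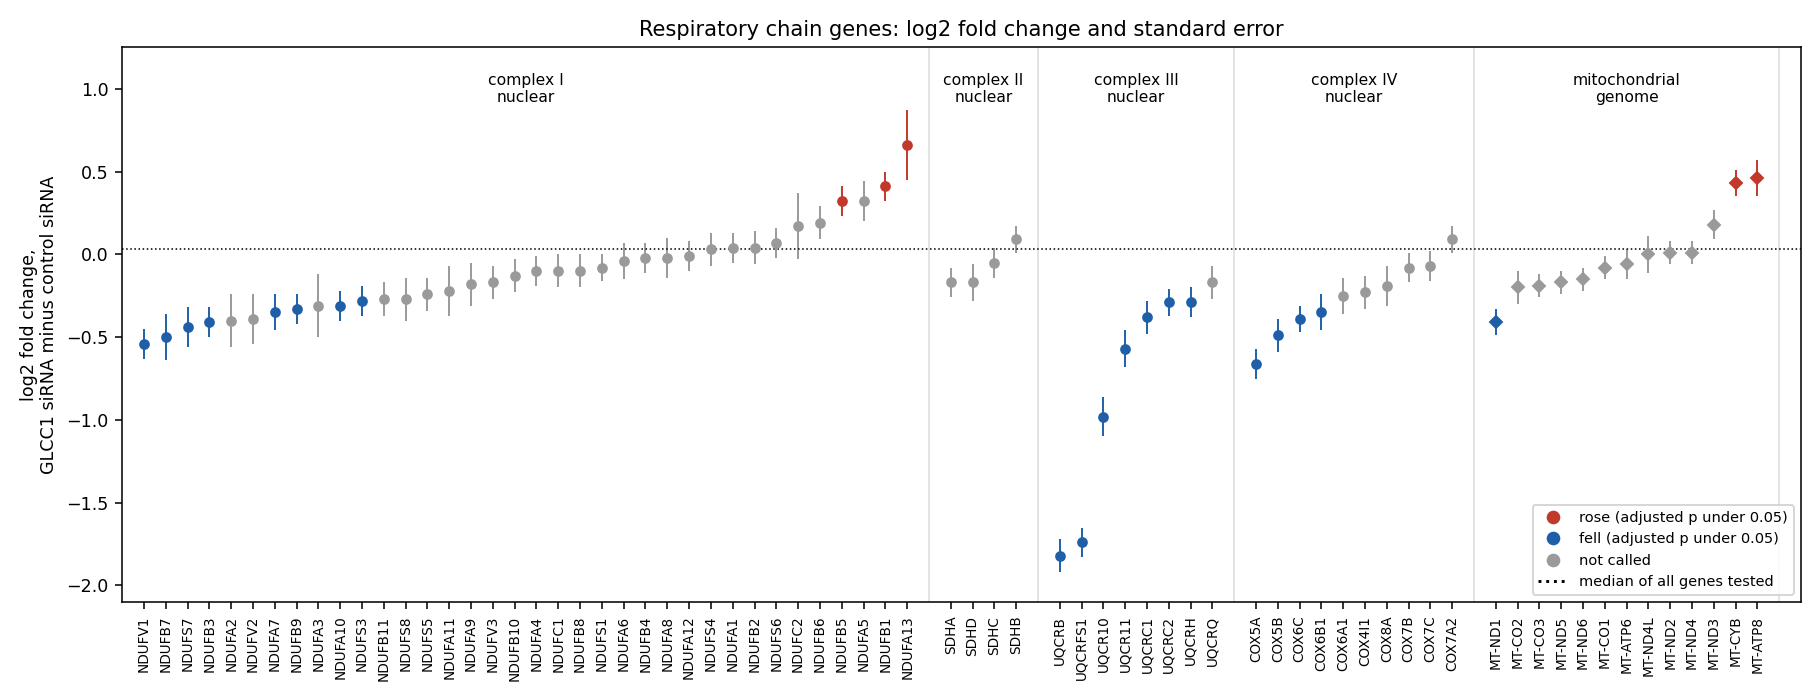
Log2 fold change (GLCC1 siRNA minus control siRNA) with its standard error for 71 of the 72 genes, with nuclear genes as circles by complex and mitochondrial genes as diamonds. Blue marks the 20 genes that fell, red 5 that rose and grey the 46 not called, and the dotted line is the median of all genes tested, 0.03; complex III holds the 3 lowest values.

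Complex I, the entry point for electrons from NADH, was mixed. Of the 37 genes named NDUFA to NDUFV, 8 fell (21.6%) and 4 rose (10.8%), both below the 29.8% and 20.1% of genes whose mean reached 10 CPM. The median log2 fold change of the 37 genes was -0.10. NDUFV1, which binds FMN and receives the electrons of NADH, had 201, 215 and 207 CPM in the controls and 148, 126 and 154 CPM after GLCC1 siRNA (log2 fold change -0.54, SE 0.09, adjusted p = 0.00041). NDUFS7, an iron-sulfur subunit next to the quinone site, had 42.8, 47.7 and 45.7 CPM and then 36.1, 27.0 and 36.5 CPM (log2 fold change -0.44, adjusted p = 0.01), a call that was lost without control siRNA replicate 2 (adjusted p = 0.057). Both are core subunits, and their control and treated libraries did not overlap. The accessory subunits NDUFB7 and NDUFB3 fell by 0.50 and 0.41 on the log2 scale, where the call of NDUFB7 was lost without control siRNA replicate 2 (adjusted p = 0.061) or 3 (adjusted p = 0.074), and NDUFA7, NDUFB9, NDUFA10 and NDUFS3 fell by 0.28 to 0.35. NDUFA4 carries a complex I name but has been placed in complex IV, and its log2 fold change was -0.10 (adjusted p = 0.44).

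The rises in complex I that are described here were in accessory subunits. NDUFB1, an accessory subunit of the membrane arm, had 42, 37.7 and 42.5 CPM and then 54.0, 52.4 and 56.3 CPM (log2 fold change 0.41, adjusted p = 0.0033). NDUFB5, of the same arm, rose from 52.9, 52.4 and 53.4 CPM to 63.9, 72.9 and 61.3 CPM (log2 fold change 0.32, adjusted p = 0.018), but its call was lost without any one of the control libraries (adjusted p of 0.071 to 0.078). NDUFA13 had only 1.63 to 1.76 CPM in the controls and 2.39 to 2.82 CPM after GLCC1 siRNA, and 83.9% of its exonic bases are shared with another annotated gene, so its log2 fold change of 0.66 (adjusted p = 0.027) is uncertain. Its call was also lost without either GLCC1 siRNA replicate 1 or 3 and without any one of the controls.

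By position in the complex, 1 of 8 genes of the NADH-oxidizing module fell and none rose in edgeR, where 3 had an unadjusted p under 0.05, all falls, and DESeq2 also called 1. In the quinone-reducing module 3 of 7 genes fell, NDUFS7, NDUFA7 and NDUFS3. This module moved in both directions, since NDUFA5 lay higher in every GLCC1 siRNA library (log2 fold change 0.32, adjusted p = 0.061). The shares that fell, 12.5% and 42.9%, stand beside 29.8% of genes whose mean reached 10 CPM. Of all 37 genes only NDUFV1, NDUFB7 and NDUFA13 had a log2 fold change of 0.50 or more in size.

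The median log2 fold change of the 4 complex II genes was -0.11, beside -0.10 for the nuclear genes of complex I. Of the 10378 genes whose mean reached 10 CPM, 5198 were not called, so an absence of calls among 4 genes says little. None of the 4 SDH genes was called by edgeR or by DESeq2, and none had an unadjusted p under 0.05. SDHA, the flavoprotein that oxidizes succinate, had 242, 268 and 266 CPM in the controls and 238, 202 and 250 CPM after GLCC1 siRNA (log2 fold change -0.17, SE 0.09). SDHB, the iron-sulfur subunit, had a log2 fold change of 0.09 (SE 0.08), and the membrane anchors SDHC and SDHD had -0.05 (SE 0.09) and -0.17 (SE 0.11). In each of the 4 genes the groups overlapped. SDHD passed the test at -0.31 when GLCC1 siRNA replicate 2 was left out, where it had 82.2 CPM against 66.8 and 57.8 CPM in its group. SDHA shares 69.4% of its exonic bases with another annotated gene, and the listed copy SDHAP1 had 11.8% of its counts.

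In complex IV, cytochrome c oxidase, 4 of 10 nuclear genes fell (40%) and none rose, which DESeq2 gave too, beside 29.8% and 20.1% of genes whose mean reached 10 CPM. At an unadjusted p under 0.05 there were 6 falls and no rise, beside 3685 falls among those 10378 genes. COX5A went from 104, 109 and 110 CPM to 67.3, 63.3 and 73.3 CPM (log2 fold change -0.66, SE 0.09, adjusted p = 6.9e-05). COX5B, which binds zinc, went from 134, 138 and 146 CPM to 106, 82.6 and 110 CPM (log2 fold change -0.49, adjusted p = 0.0028). COX6C went from 167, 160 and 170 CPM to 118, 126 and 133 CPM (log2 fold change -0.39, adjusted p = 0.0022), and neither gene's groups overlapped. COX6B1, which faces the intermembrane space, had a log2 fold change of -0.35 (adjusted p = 0.033), and its call was lost without any one of the control libraries and with library totals. COX4I1, the most abundant nuclear subunit per kb of transcript, had 319 CPM ± 20.7 (SD, n = 3) in the controls and 271 CPM ± 35.6 (SD, n = 3) after GLCC1 siRNA (log2 fold change -0.23, adjusted p = 0.091). COX7A2 was the only one with a positive value, 0.09 (adjusted p = 0.43). COX6A1 is uncertain, since its listed copy COX6A1P2 had 324% of its counts.

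The mitochondrial genes were far more abundant. Their counts made up 4.33% to 4.60% of all gene counts in the control libraries and 4.39% to 4.89% in the GLCC1 siRNA libraries, whereas the 59 nuclear genes made up 0.481% to 0.498% and 0.414% to 0.468%. The mitochondrial shares overlapped between the groups and the nuclear ones did not. Levels per kb of canonical transcript allow only a rough comparison of genes, since they depend on the annotated length. UQCRB, with 8459 bases, had 111 CPM and 13.2 CPM per kb in the controls. UQCRH, with 537 bases, had 87.5 CPM and 163 CPM per kb. By this measure the median mitochondrial gene had 1814 CPM per kb in the controls and the median nuclear gene 74.3 CPM per kb. MT-CO1, the catalytic subunit of complex IV, stood highest at 10443 CPM per kb, followed by MT-ND4 at 7237 CPM per kb and by MT-CO3 and MT-CO2 at 5782 and 5778 CPM per kb, which did not differ beyond their spread. MT-ATP8 was lowest at 93.6 CPM per kb, a level without the read pairs that also touch MT-ATP6.

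Of the 13 mitochondrial genes, 2 rose (15.4%), 1 fell (7.69%) and 10 were not called, with a median log2 fold change of -0.06. Of all genes tested 14.9% rose and 16.7% fell, and of genes whose mean reached 10 CPM 20.1% rose and 29.8% fell. Between genomes, the median of the mitochondrial genes was 0.12 higher than that of the nuclear genes on the log2 scale, where the replicates of a group differed by 0.06 (SD), and it was 0.09 to 0.18 higher when any one library was left out. The mitochondrial median itself was within the replicate spread of 0.09 around no change, turned to 0.06 with library totals and was 0.03 without GLCC1 siRNA replicate 2. Relative to the median of all genes tested it was -0.09 both with TMM factors and with library totals. These medians are a description, without a test over the genes.

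MT-CYB, the cytochrome b that forms the catalytic heart of complex III, had 1566, 1578 and 1742 CPM in the control libraries and 2227, 2091 and 2277 CPM in the GLCC1 siRNA libraries. Every treated library was above every control (log2 fold change 0.43, SE 0.08, adjusted p = 0.00066). MT-ND1, a core subunit of complex I beside the quinone site, moved the other way, from 888, 901 and 905 CPM to 734, 604 and 687 CPM (log2 fold change -0.41, SE 0.08, adjusted p = 0.0018). MT-ATP8, a small subunit of ATP synthase, had 20.4, 17.1 and 20.7 CPM and then 25.5, 29.4 and 25.1 CPM (log2 fold change 0.46, SE 0.11, adjusted p = 0.0071), a call that was lost without control siRNA replicate 2 (adjusted p = 0.055). MT-ATP6, its partner in the membrane part of ATP synthase, overlapped between groups (log2 fold change -0.06, adjusted p = 0.66). The genes MT-ATP8 and MT-ATP6 share bases, so the counts of MT-ATP8 leave out read pairs that also touch MT-ATP6. What part this has in the rise of MT-ATP8 was not tested. The call of MT-CYB and that of MT-ND1 held in edgeR with every scaling, filter and left-out library and in DESeq2.

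The remaining genes had log2 fold changes of -0.20 to 0.18. MT-CO1 had 15961, 15843 and 16503 CPM in the controls and 15897, 14518 and 15305 CPM after GLCC1 siRNA (log2 fold change -0.08, SE 0.07, adjusted p = 0.42). MT-CO2 and MT-CO3, also of the complex IV core, had log2 fold changes of -0.20 and -0.19 (adjusted p of 0.16 and 0.065). Of the complex I genes, MT-ND2 and MT-ND4 had 0.01, MT-ND4L had 0.00, MT-ND3 had 0.18, MT-ND5 had -0.17 and MT-ND6 had -0.15, none with an adjusted p under 0.05. For MT-CO2, MT-CO3, MT-ND5 and MT-ND6 all treated libraries were nonetheless below all controls. When GLCC1 siRNA replicate 2 was left out, MT-CO3, MT-ND5 and MT-ND6 passed the test with falls of 0.14 to 0.16, whereas MT-CO2 had -0.07 (adjusted p = 0.32). MT-ND3, above its controls in each treated library, passed as a rise of 0.23 in the same setting and of 0.30 with library totals.

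Along the mitochondrial genome the calls were not scattered evenly. The small and large ribosomal RNAs, MT-RNR1 (648 to 1601) and MT-RNR2 (1671 to 3229), and MT-ND1 (3307 to 4262) are neighbours on the plus strand, and these 3 genes fell by 0.58, 0.42 and 0.41 on the log2 scale. MT-RNR1 had 457, 514 and 488 CPM in the controls and 285, 320 and 372 CPM after GLCC1 siRNA (adjusted p = 0.00051), and MT-RNR2 had 3172, 3483 and 3308 CPM and then 2466, 2369 and 2616 CPM (adjusted p = 0.0007). In the controls this was 510 CPM per kb for MT-RNR1 and 2130 CPM per kb for MT-RNR2. What part library preparation has in the counts of ribosomal RNA was not tested. From MT-ND2 to MT-ND5 only MT-ATP8 was called. MT-CYB (14747 to 15887), the last protein-coding gene of the plus strand, rose, and MT-ND6 (14149 to 14673), the only protein-coding gene of the minus strand, was not called. This order was noticed in the values and was not tested.

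**Figure D3:**
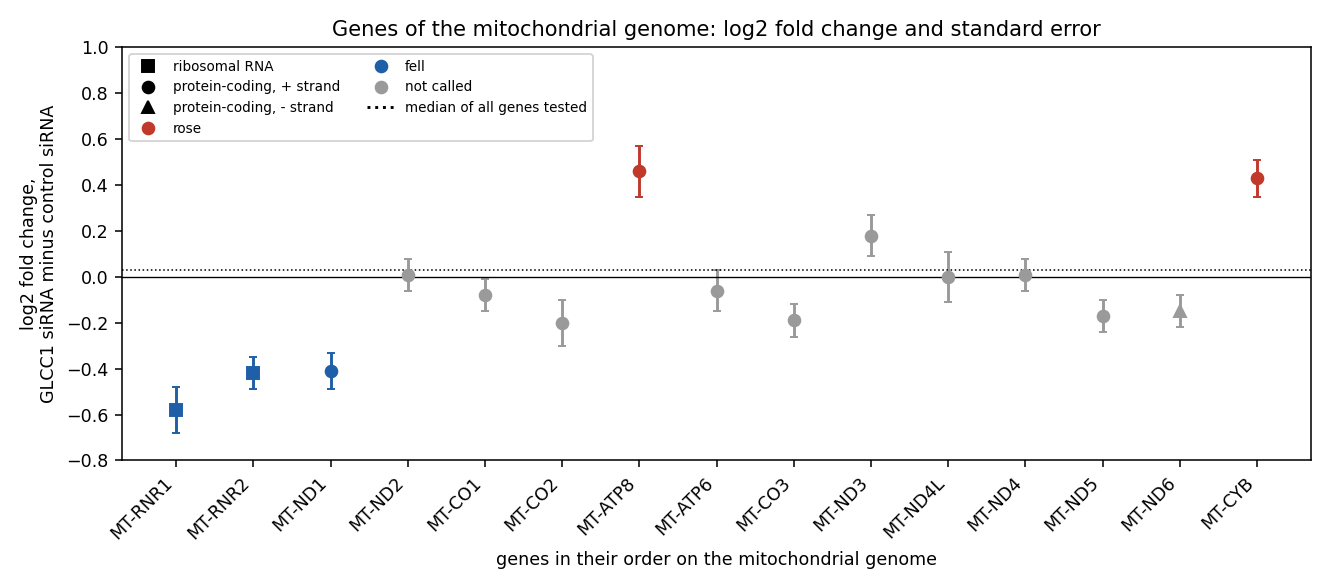
Log2 fold change (GLCC1 siRNA minus control siRNA) with its standard error for the 2 ribosomal RNA genes and the 13 protein-coding genes, in their order on the mitochondrial genome, with falls in blue, rises in red and genes not called in grey. The first 3 genes lie between -0.58 and -0.41, MT-CYB at the end lies at 0.43, and the dotted line is the median of all genes tested.

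Counting limits some of these genes. MT-ATP8 and MT-ATP6 share 46 bases, from 8527 to 8572 of the mitochondrial genome in GRCh37. This shared stretch, shown because a read pair that touches both genes is given to neither in union mode, runs from the start codon of MT-ATP6 to the stop codon of MT-ATP8, both in capitals.
MT-ATP8 and MT-ATP6 overlap: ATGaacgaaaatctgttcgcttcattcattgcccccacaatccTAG

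MT-ND4L and MT-ND4 share 7 bases, from 10760 to 10766. MT-ND6 borders MT-ND5 on the opposite strand without a shared base, and since no strand setting is stated, reads of the opposite transcript cannot be told from its own. Of 22 mitochondrial tRNA genes 20 had no count in any library, and MT-TP had 3037 to 6191 counts with a log2 fold change of -0.04 (adjusted p = 0.78). Nuclear copies of mitochondrial genes may also take reads: of 175 listed copies 15 could be tested, 2 of them rose and none fell, with no fall at an unadjusted p under 0.05 or in DESeq2. The most abundant copy, MTATP6P1, had 20.5% of the counts of MT-ATP6 and a log2 fold change of -0.17 (adjusted p = 0.2). The risen copies MTND5P11 and MTND4P12 had at most 2.15 CPM, or 0.0439% and 0.00914% of the counts of MT-ND5 and MT-ND4.

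Summed over genes, the balance of mitochondrial to nuclear counts shifted little outside complex III. In the control libraries there were 9.25, 9.01 and 9.25 mitochondrial counts for each nuclear count, and in the GLCC1 siRNA libraries there were 10.6, 10.6 and 10.0. The groups did not overlap, and the mean log2 ratio was 0.18 higher after GLCC1 siRNA, where replicates differed by 0.04 (SD). MT-CO1 alone was 33.7% to 34.9% of the mitochondrial counts, and without it, a choice made after seeing the data, the difference was 0.19. Within complex III the ratio was 1.57, 1.54 and 1.65 in the controls and 3.23, 3.37 and 3.21 after GLCC1 siRNA, since MT-CYB rose and the nuclear sum dropped from between 997 and 1055 CPM to between 621 and 710 CPM. Within complex I it went from 7.92, 7.81 and 8.06 to 8.66, 8.55 and 8.08, and within complex IV from 19.9, 19.3 and 19.2 to 21.6, 22.8 and 20.5. These ratios compare counts in the same library and do not depend on the scaling between libraries.

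**Figure D4:**
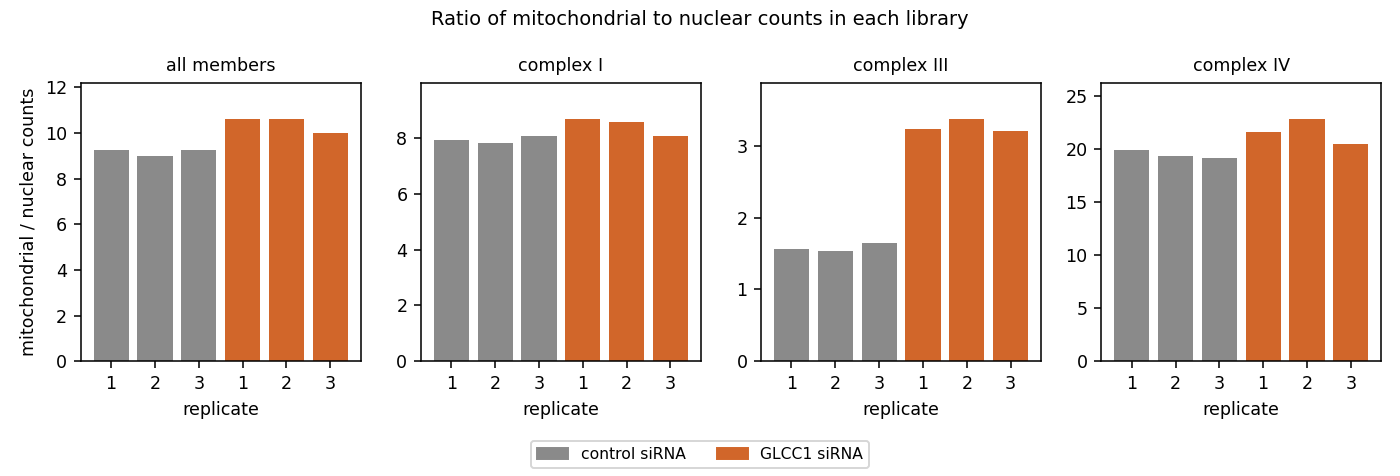
Ratio of summed mitochondrial to summed nuclear counts in each library (1 bar per library, axes from 0), for all genes and for complexes I, III and IV, with control siRNA in grey and GLCC1 siRNA in orange. The complex III ratio goes from between 1.54 and 1.65 to between 3.21 and 3.37, whereas the other panels move much less.

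Of the 18 nuclear subunits of ATP synthase, which the rule does not name, 6 fell (33.3%) and 2 rose (11.1%), beside 29.8% and 20.1% of genes whose mean reached 10 CPM. The median log2 fold change of the 18 subunits was -0.17. ATP5A1 and ATP5B, the alpha and beta subunits of the catalytic head, were among those that fell. ATP5A1 had 778, 771 and 804 CPM in the controls and 384, 385 and 408 CPM after GLCC1 siRNA (log2 fold change -1.0, SE 0.07, adjusted p = 4.5e-07). ATP5B had 1214, 1233 and 1264 CPM and then 771, 671 and 758 CPM (log2 fold change -0.75, adjusted p = 8.9e-06). ATP5H fell by 0.66 as well, while ATP5L, a membrane subunit, and ATPIF1, the inhibitor of the enzyme, rose by 0.37 and 0.32.

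Assembly factors changed one by one. In each list below, the shares that fell and rose were under the 29.8% and 20.1% of genes whose mean reached 10 CPM. For complex I, 3 of 16 fell and 2 rose, with TIMMDC1, which helps build the membrane arm, at -0.71 (adjusted p = 4.4e-05), C17orf89 at -0.59 and NDUFAF7, a methyltransferase, at 0.49. For complexes II and III, 1 of 10 tested fell and 1 rose. The one that fell was BCS1L, the translocase that inserts UQCRFS1 into complex III, from 40.9, 41.4 and 40.8 CPM to 31.9, 27.6 and 31.1 CPM (log2 fold change -0.44, adjusted p = 0.0027), and TTC19, which clears fragments of UQCRFS1, rose by 0.24 (adjusted p = 0.047). For complex IV, 4 of 22 tested fell and 1 rose. TACO1, the activator of MT-CO1 translation, fell from 34.6, 35.8 and 33.4 CPM to 16.5, 18.3 and 20.5 CPM (log2 fold change -0.91, adjusted p = 2.7e-05), and its transcript holds the 8-base word once. SURF1 and SCO1, which serve haem and copper insertion, fell by 0.51 and 0.44.

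Among genes that make or keep mitochondrial RNA, 8 of the 21 for processing and stability fell (38.1%) and 2 rose (9.52%). Falls also outnumbered rises among all genes whose mean reached 10 CPM, at 29.8% and 20.1%. HSD17B10, a subunit of the mitochondrial RNase P that cuts tRNAs out of the long transcripts, went from 82.8, 83.8 and 89.7 CPM to 40.7, 32.5 and 44.4 CPM (log2 fold change -1.12, SE 0.11, adjusted p = 6.2e-06). TBRG4, of the FASTK family, fell by 0.71 (adjusted p = 0.0012). LRPPRC, which stabilizes mitochondrial mRNAs, went from 465, 435 and 458 CPM to 300, 354 and 291 CPM (log2 fold change -0.52, adjusted p = 0.00047), and its partner SLIRP had -0.19 (adjusted p = 0.13). SUPV3L1, the helicase of the mitochondrial degradosome, fell by 0.54 (adjusted p = 0.00028), while its partner nuclease PNPT1, which is also known as an interferon-induced gene, rose from 184, 178 and 166 CPM to 283, 293 and 232 CPM (log2 fold change 0.62, adjusted p = 0.00026).

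For transcription and maintenance of mitochondrial DNA, 3 of 15 tested genes fell and 3 rose (20% each), beside 29.8% and 20.1% of genes whose mean reached 10 CPM. POLRMT, the mitochondrial RNA polymerase, fell by 0.50 (adjusted p = 0.0028) and C10orf2, the replicative helicase Twinkle, by 0.53 (adjusted p = 0.00075), whereas PRIMPOL rose by 0.54 and MTERFD3, a factor of the MTERF family, by 0.50. TFAM, which packs and activates the mitochondrial genome, had a log2 fold change of -0.26 (adjusted p = 0.084). Of 10 tested nuclear regulators of mitochondrial genes, MYC fell, from 155, 140 and 151 CPM to 118, 89.1 and 112 CPM (log2 fold change -0.48, adjusted p = 0.003), and GABPB2 rose by 0.29 (adjusted p = 0.043). GABPA, ESRRA and YY1 had values between -0.00 and 0.02, NRF1 had -0.28 (adjusted p = 0.053), and PPARGC1A was near the limit of detection at 0.119 CPM in the controls.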

How the data were processed

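The deposited files give, for each of 6 libraries, whole-number counts of read pairs, 1 row a gene symbol, made by the authors from TruSeq RNA libraries by mapping to hg19 with TopHat2 2.0.11 and counting with HTSeq in union mode, without normalization or filter. The strand setting is not given in the sources used here. HTSeq tallied 10.8% to 12.4% of all pairs of a library as without a unique alignment. Whether such pairs were also counted to genes is not stated. The tallies that HTSeq appends were removed and used only for shares of unassigned pairs.

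A gene was tested where the 3 libraries of at least 1 group held 5 or more counts in sum. Counts were scaled with TMM factors of 0.950 to 1.05 and compared in edgeR 4.0.16 (robust quasi-likelihood fit, limma 3.58.1, R 4.3.3), with Benjamini-Hochberg adjustment over 23074 genes and a threshold of 0.05. The edgeR fit was tested on simulated data, and DESeq2 1.42.0 was an alternative. CPM values use the same factors. Total counts were between 11948790 and 19042516, and standard errors of the log2 fold changes were 0.07 to 0.11 for mitochondrial and 0.08 to 0.21 for nuclear genes. No library was a copy of another.

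Positions, lengths, overlaps and words come from GENCODE 44 mapped to GRCh37, in which 71 of the 72 symbols were matched. 1 nuclear gene is counted in the totals but not reported here. Members, gene lists and tests were chosen with earlier results of these data known. Named were all mitochondrial and SDH genes, up to 4 rises and 4 falls among called genes of each other complex, and, from each related list, up to 3 called genes with the largest change and any gene needed for its role, while the remaining called genes were given in ranges or for contrast. Alternatives were library totals, DESeq2 size factors, TMM factors without MT- genes, filters of 1 count in any library or of 10 counts in each, a replicate block, each library left out, and the genes without an abundant copy (at least 5% of their counts). Sums without UQCRB and UQCRFS1 and ratios without MT-CO1 were added after seeing the data. Calculations outside R used Python 3.11.15 with pandas, numpy and scipy.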

Additional observations from a re-analysis of the deposited data

Results flagged for a closer look

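One measure outside the gene counts lay above the level of the controls. Among the pairs given to 1 gene, to no gene or to several, those given to no gene were 12.7%, 14.2% and 12.5% after GLCC1 siRNA, against 11.2% to 11.5% in the controls. The highest share was that of replicate 2, the library in which 44 of the 59 nuclear subunits were lowest in their group, and its part in those values was not tested. The share of pairs given to several genes was 8.19% in that library and 8.73% to 8.89% in the others.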

How the results depend on the processing

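With library totals 11 nuclear genes fell, the nuclear median was -0.06 and the mitochondrial median 0.06, because this scaling alone moves the median of all genes from 0.03 to 0.15. In the fit with a replicate block 2 nuclear genes rose. Same-numbered libraries did not deviate together (correlations of -0.13, -0.25 and 0.00 over 14875 genes, others -0.20 to 0.22), and no source says that the numbers pair them, so the block is given here only: 17 nuclear genes fell, and 2 mitochondrial genes rose and 1 fell. Leaving out 1 library at a time gave 2 to 5 nuclear genes that rose, 10 to 23 that fell, 1 to 3 mitochondrial genes that rose and 1 to 4 that fell, with mitochondrial medians of -0.11 to 0.03. Nuclear falls were fewest without control siRNA replicate 3 (10), without control siRNA replicate 2 (11) and most without GLCC1 siRNA replicate 2 (23), and mitochondrial falls numbered 4 only without that library. The difference between the medians was 0.09 to 0.18 and the log2 count ratio 0.17 to 0.21 in every setting run.

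Reversals touched genes near no change. With library totals MT-ATP6 was 0.06, MT-CO1 0.04, MT-ND4L 0.12 and SDHC 0.08, and MT-ND4L was 0.01 with DESeq2 size factors, 0.03 with the filter of 10 counts in every library and 0.01 in DESeq2. With 1 library left out, values ranged from -0.12 to 0.03 for MT-ATP6, from -0.03 to 0.03 for MT-ND2, from -0.01 to 0.06 for MT-ND4, from -0.10 to 0.12 for MT-ND4L and from -0.08 to 0.00 for SDHC. Of 429 values for 33 named genes, 386 kept their direction and side of the threshold, 20 lost a call, 6 gained one and 17 turned. Calls of 6 genes were lost in some setting, NDUFA13 and COX6B1 in the most. The causes of these changes were not tested.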
